A study of Saccharomyces cerevisiae with 12 samples.

Results

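The 9 yeast genes described here encode the enzymes that carry pyruvate to ethanol and to acetyl-CoA outside the mitochondrial pyruvate dehydrogenase: PDC1, PDC5, PDC6, ADH1, ADH2, ALD4, ALD6, ACS1 and ACS2. They were taken by name, as the genes whose probe sets name no other gene, out of 5923 genes named by the array's annotation. All 9 had a probe set of their own, and ALD6 had 2, which makes 10 probe sets in all. Where a gene had more than 1 probe set, the one with the highest mean was used. Of the 9 genes, 8 were bright enough to be tested, and PDC6 was not.

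The arrays, 12 in all, are 1-colour Affymetrix arrays hybridised with Saccharomyces cerevisiae RNA, in 4 groups of 3. The groups are a rap1 temperature-sensitive (ts) mutant, an abf1 ts mutant and a separate wild-type control for each, called the rap1 wild type and the abf1 wild type below. All cells, wild type included, had grown at 25 C and spent 1 h at 37 C, so no array shows cells without a heat shift. The labels name the rich medium YPD for the rap1 wild type and for both mutants and name no medium for the abf1 wild type, and they give no strain background or allele. Per the series' design text the mutant proteins no longer bind DNA at 37 C, and each comparison asks which RNAs had changed after that hour.

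Pyruvate decarboxylase (PDC1, PDC5, PDC6) splits pyruvate into acetaldehyde and carbon dioxide, and alcohol dehydrogenase (ADH1) reduces acetaldehyde to ethanol, which is how yeast on glucose regenerates NAD+. ADH2 runs the opposite way and oxidises ethanol once glucose is used up. Aldehyde dehydrogenases (ALD6 in the cytosol, ALD4 in mitochondria) turn acetaldehyde into acetate, and the acetyl-CoA synthetases ACS1 and ACS2 activate acetate for lipid synthesis and protein acetylation. Rap1, together with Gcr1 and Gcr2, is a known activator of the highly expressed glycolytic and fermentative genes, PDC1 and ADH1 among them, and an Abf1 site is known in the ACS1 promoter.

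The deposited values are MAS5 signals, a probe set summary on a linear scale that was scaled per array. Signal levels cannot be compared between different probe sets, so levels are compared below only within 1 gene, between arrays, and genes are set side by side only by their changes and their spread. Tests used limma on log2(signal + 12.6), adjusted by Benjamini-Hochberg over 4687 features, and a gene is said to have risen or fallen only at an adjusted p under 0.05. Arrays with the same replicate number deviated together, so a second fit with that number as a block is given where it changes a call. The labels do not say that arrays of a group came from separate cultures, and p-values then measure only the spread between these arrays, which may be technical. Median signals of the arrays ran from 390.4, in rap1 wild-type array 2, to 598.3. The ratio of 3' to 5' signal of the ACT1 control probe sets, a sign of RNA quality or labelling, was 18.2, 6.58 and 2.56 in the rap1 wild type and 48.4, 20.1 and 28.0 in rap1 ts. It was 8.73, 11.4 and 17.4 in the abf1 wild type and 32.7, 3.47 and 4.41 in abf1 ts. All 3 rap1 ts ratios were thus above all 3 of the rap1 wild type, and their part in the rap1 ts results below was not tested. RAP1 had a log2 fold change of -0.12 in rap1 ts and ABF1 one of 1.62 in abf1 ts, neither past the test (limma adjusted p = 0.842 and 1.000), and RNA levels do not check a mutant protein.

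None of the 8 tested genes rose or fell in either mutant without the block. In rap1 ts 0.405% of all features were called, in abf1 ts 0.0427%, and in the difference of the mutant effects and between the wild types 0%. At an unadjusted p under 0.05 the number was 1 of the 8 genes in rap1 ts, ACS2, against 1043 of 4687 features, and 0 of the 8 genes in abf1 ts, in the difference and between the wild types, against 145, 596 and 156 features. With the replicate block ACS2 fell in rap1 ts, where 10% of all features fell and 15% rose, and it was the single call among the 8 genes in the fits with the block within each series (background 0.213% of features in abf1 ts and 9.09% in the difference). In rap1 ts 5 of the 8 genes lay below 0 and their median log2 fold change was -0.21, beside a median of 0.09 over all 4687 features, of which 44.1% lay below 0. In abf1 ts 4 of the 8 lay below 0 with a median of -0.03, which is also the median over all features.

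**Figure D1:**
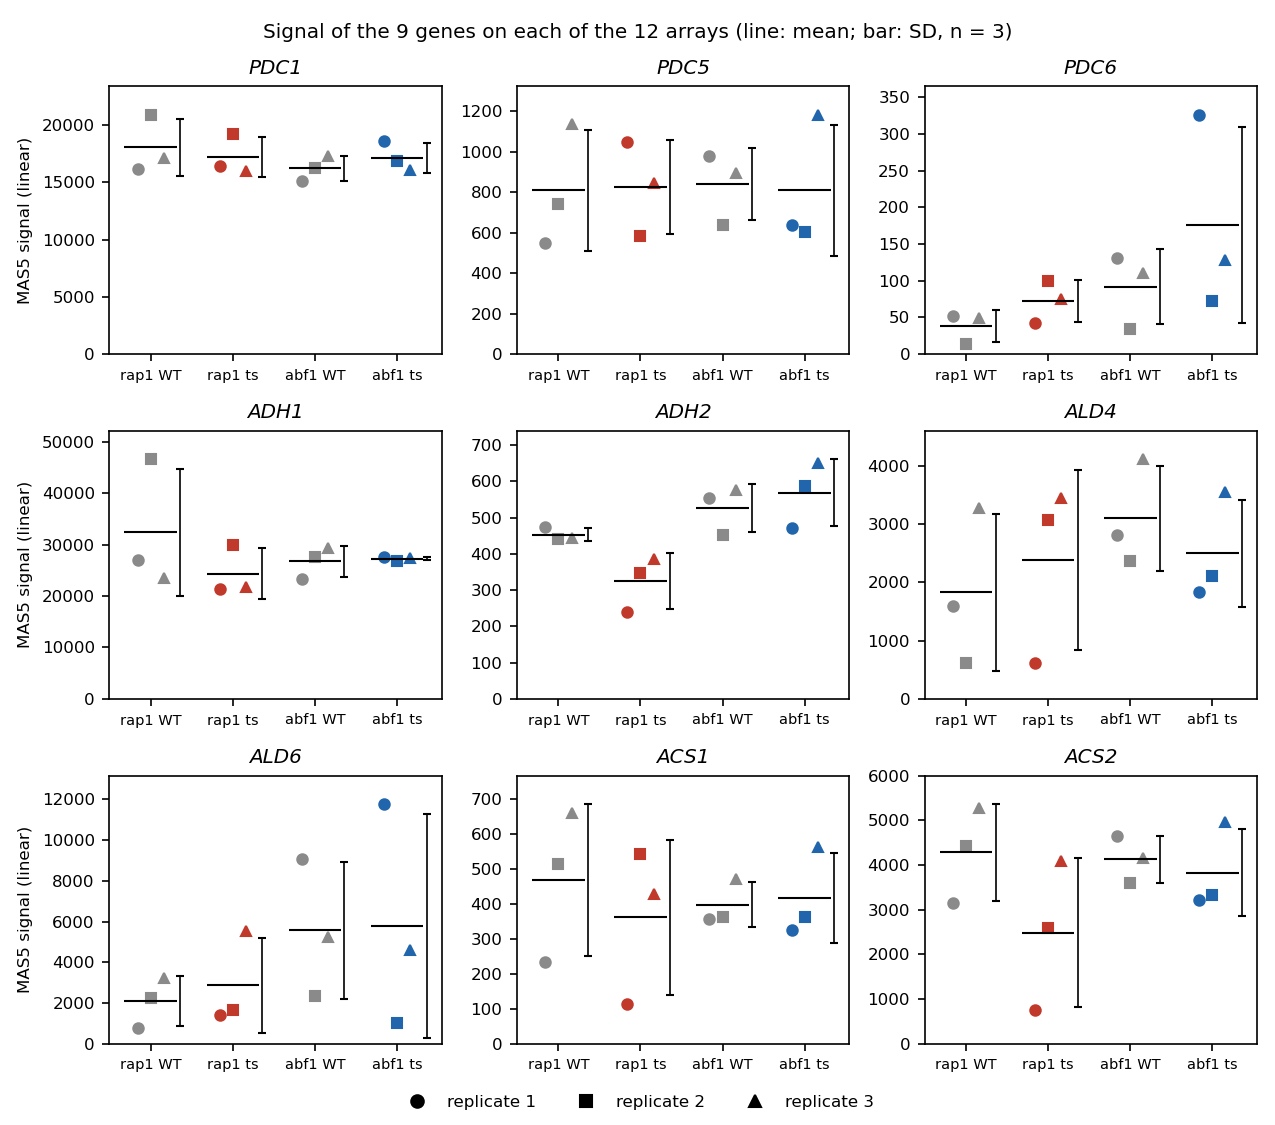
MAS5 signal (linear axis from 0) of each of the 9 genes on each of the 12 arrays, by group, with symbols for the replicate number, a line for the mean and a bar for the SD over 3 arrays. PDC1 sits between 15099 and 20882 on all arrays, and the 3 rap1 ts values of ADH2 lie under the other 9.

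PDC1, the main pyruvate decarboxylase of growing yeast, had nearly the same signal in all groups. The rap1 wild-type arrays read 16185, 20882 and 17074, and the rap1 ts arrays 16372, 19161 and 16002. The ranges of these groups overlap, and replicate 2 is the highest in each. The mutant differed by -0.07 on the log2 scale (limma SE 0.17, adjusted p = 0.838), with a 95% interval that runs from a ratio of 0.740 to one of 1.23. The abf1 wild type read 15099, 16202 and 17308 and abf1 ts 18585, 16808 and 16032 (log2 fold change 0.08, SE 0.17, interval of the ratio 0.820 to 1.36).

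Over the 12 arrays the highest PDC1 signal was 1.38 times the lowest, with an SD of 0.13 on the log2 scale. The median SD was 0.45 over all tested features and 0.29 over the 100 features of highest mean, PDC1 among them. Only 0.235% of features varied less than PDC1, and none of the 100 features of highest mean did. That rank rests partly on how the arrays were scaled: 1.96% of features varied less after quantile scaling and 8.19% after centring each array on its median.

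PDC5, the second decarboxylase, which is known to rise when PDC1 is lost, read 551, 743 and 1136 in the rap1 wild type and 1048, 585 and 844 in rap1 ts. These values interleave, and the pair of arrays numbered 1 had a log2 change of 0.91 while the pairs numbered 2 and 3 had -0.34 and -0.42. The fitted log2 fold change was 0.05 (SE 0.36, limma adjusted p = 0.950), and its sign turned under each of 3 other scalings. In the abf1 series PDC5 read 980, 640 and 896 in the wild type and 639, 605 and 1182 in the mutant (log2 fold change -0.10, SE 0.36). There the mutant arrays hold both the lowest and the highest value, while in the rap1 series the wild-type arrays do.

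PDC6, a minor decarboxylase isozyme, was dim. Its mean of 6.44 on the log2 scale lay under the minimum of 8.16 used for testing. The rap1 wild type read 51.9, 13.5 and 49.7 and rap1 ts 42.2, 100 and 75.4. The abf1 wild type read 131, 33.9 and 111 and abf1 ts 326, 72.3 and 128. Its highest signal came from abf1 ts array 1 and its lowest from rap1 wild-type array 2. In a fit with no filter PDC6 had 0.79 in rap1 ts and 0.77 in abf1 ts on the log2 scale (SE 0.57 each, with adjusted p = 0.439 and 1.000 by limma).

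ADH1, the dehydrogenase that makes ethanol, read 27081, 46531 and 23436 in the rap1 wild type and 21315, 29998 and 21791 in rap1 ts. The groups overlap, because wild-type arrays 1 and 3 lie inside the range of the mutant, and array 2 is the highest of each group. The log2 fold change was -0.36 (SE 0.24, limma adjusted p = 0.378), lower in 3 of 3 pairs, with an interval of the ratio from 0.544 to 1.11. The wild-type value of 46531 comes from the array with the lowest median signal, and without that array the log2 fold change was -0.07. With the block its adjusted p was 0.121.

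In the abf1 series the ADH1 groups lay close together. The wild type read 23263, 27617 and 29259 and the mutant 27483, 26878 and 27351, so the mutant arrays lie within the wild-type range. Their SD of 318 is 1.17% of their mean. The log2 fold change was 0.03 (SE 0.24), with an interval of the ratio from 0.716 to 1.47.

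ADH2, the glucose-repressed dehydrogenase that consumes ethanol, separated the rap1 groups. The rap1 wild type read 474, 440 and 445 and rap1 ts 240, 348 and 386. Every rap1 ts value lies below every wild-type value, and replicate 1 is the lowest of the mutant arrays. The mean went from 453 ± 18.5 (SD, n = 3) to 325 ± 76.2 (SD, n = 3), a log2 fold change of -0.49 (SE 0.28) that did not pass the test (limma adjusted p = 0.307, and 0.16 with the block). Without ts array 1, the array with the highest ACT1 ratio, it was -0.29, and with the block and without pair 1 it was -0.26.

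ADH2 was the only one of the 8 genes whose rap1 groups did not overlap, where 26.5% of all features did not overlap and 10.5% did so with the mutant lower. In abf1 ts 0 of the 8 genes had groups that did not overlap, beside 7.62% of features. The abf1 arrays read 554, 452 and 576 in the wild type and 470, 588 and 649 in the mutant. The rap1 ts values of ADH2 therefore lay below all 9 other arrays, which was true of 2.97% of features. Between the mutant effects the difference was -0.59 (SE 0.39, limma adjusted p = 0.523). Of the variance of ADH2 over the arrays 72.8% lay between the 4 groups, the highest such share among the 8 genes, where the others had 1.11% to 38.0%. With so few arrays noise alone gives such shares a size above 0, those between replicate numbers below included. The shares over all features were not taken.

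**Figure D2:**
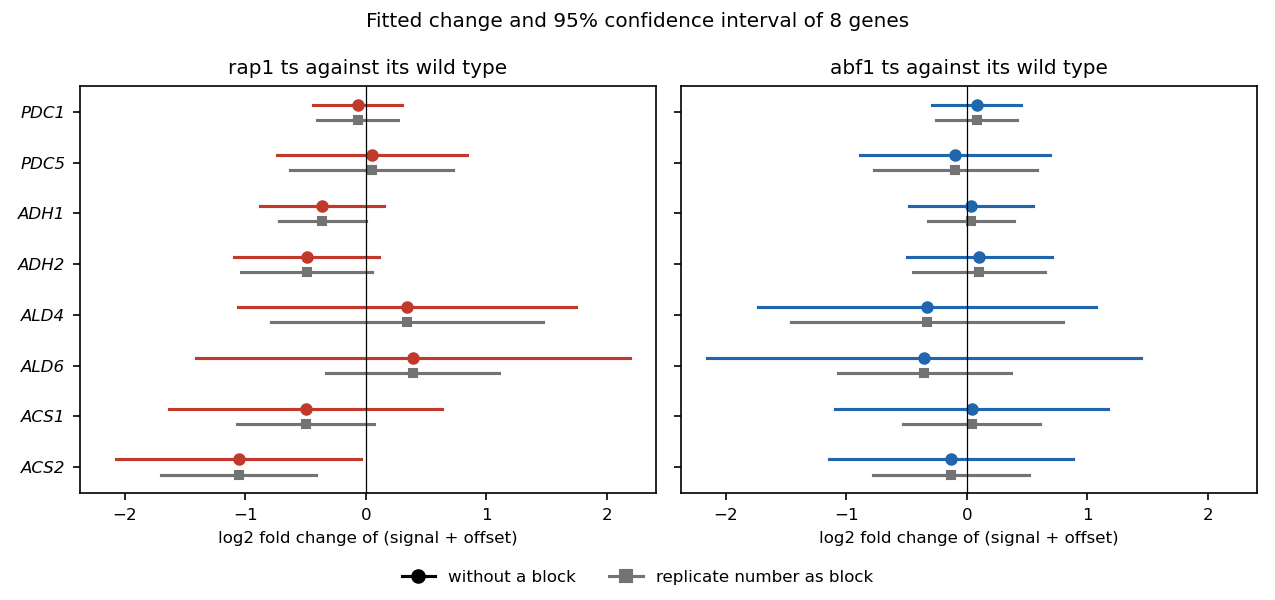
Fitted log2 fold change (points) and 95% confidence interval (lines) of the 8 tested genes in rap1 ts and abf1 ts, each against its own wild type, without a block (coloured circles) and with the replicate number as a block (grey squares). The interval of PDC1 is the narrowest and that of ALD6 without a block the widest, and ACS2 in rap1 ts has both intervals below 0.

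ALD4, the main mitochondrial aldehyde dehydrogenase, varied widely within groups. The rap1 wild type read 1592, 612 and 3280 and rap1 ts 616, 3076 and 3447. The pair numbered 1 had a log2 change of -1.35, the pair numbered 2 one of 2.31 and the pair numbered 3 one of 0.07, so the pairs do not share a direction. The log2 fold change of 0.34 (SE 0.65, limma adjusted p = 0.774) turned to -0.28 without wild-type array 2 and to -0.10 without ts array 3. In the abf1 series ALD4 read 2817, 2372 and 4106 in the wild type and 1837, 2114 and 3541 in the mutant. It was lower in 3 of 3 pairs, but the groups overlap (log2 fold change -0.33, SE 0.65).

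ALD6, the cytosolic enzyme that makes most of the acetate on glucose, had the widest spread of the 8 genes. Its highest signal, 11766 in abf1 ts array 1, was 15.1 times its lowest, 777 in rap1 wild-type array 1. The rap1 wild type read 777, 2266 and 3214 and rap1 ts 1388, 1661 and 5556 (a limma log2 change of 0.39, SE 0.83, with adjusted p = 0.804). The abf1 wild type read 9077, 2367 and 5246 and abf1 ts 11766, 994 and 4598 (log2 fold change -0.35, SE 0.83).

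In the abf1 series ALD6 fell into the same order in both groups, with replicate 1 highest and replicate 2 lowest. In the rap1 series replicate 1 was lowest and replicate 3 highest in both groups. Of its variance 70.1% lay between the replicate numbers within a series and 22.7% between the groups. Blocking on the number shrank the SE from 0.83 to 0.32 without bringing a call in either mutant (adjusted p = 0.389 and 0.944). The other ALD6 probe set was at 35.5 or below on all 12 arrays and gave no usable level.

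ACS1, the synthetase that glucose represses, read 232, 512 and 659 in the rap1 wild type and 113, 542 and 427 in rap1 ts. The groups overlap, with the array numbered 1 lowest in each. The log2 fold change was -0.50 (SE 0.52, limma adjusted p = 0.584), and it was 0.16 without ts array 1. In the abf1 series the readings were 358, 362 and 472 in the wild type and 324, 363 and 564 in the mutant. These are the closest groups of the acetate genes, with a log2 fold change of 0.04 (SE 0.52) and an interval of the ratio from 0.468 to 2.25. Of the variance of ACS1 83.8% lay between the replicate numbers within a series.

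ACS2, the synthetase that growth on glucose requires, had the largest fitted change of the 8 genes in rap1 ts over all arrays, though not without ts array 1, where ALD4 had 1.13 and ALD6 0.76 against -0.36 for ACS2. The rap1 wild type read 3140, 4426 and 5281 and rap1 ts 763, 2597 and 4085. The mutant array of each number is lower than its wild-type partner, although array 3 of the mutant is above array 1 of the wild type, so the groups overlap. The mean went from 4283 ± 1078 (SD, n = 3) to 2482 ± 1664 (SD, n = 3), with a log2 fold change of -1.05 (SE 0.47, limma adjusted p = 0.212). With the replicate block ACS2 fell (blocked SE 0.29, limma adjusted p = 0.0277, interval -1.70 to -0.41), and with 1 block shared by all 12 arrays it did not pass (adjusted p = 0.0685).

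The 3 pairs of ACS2 had log2 changes of -2.02, -0.77 and -0.37. Ts array 1, which gives the largest of these, also had the highest ACT1 ratio of the 12 arrays, 48.4, and an SPT15 ratio of 56.9, where the other 11 arrays had at most 16.2. The part of these ratios in the change was not tested. Without pair 1 the blocked log2 fold change was -0.57 (limma adjusted p = 0.121), and without ts array 1 and without a block its adjusted p was 0.556. In the abf1 series ACS2 read 4644, 3592 and 4159 in the wild type and 3207, 3324 and 4952 in the mutant (log2 fold change -0.13, SE 0.47). The difference between the mutant effects was -0.92 (SE 0.66, limma adjusted p = 0.548, and 0.163 with the block).

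**Figure D3:**
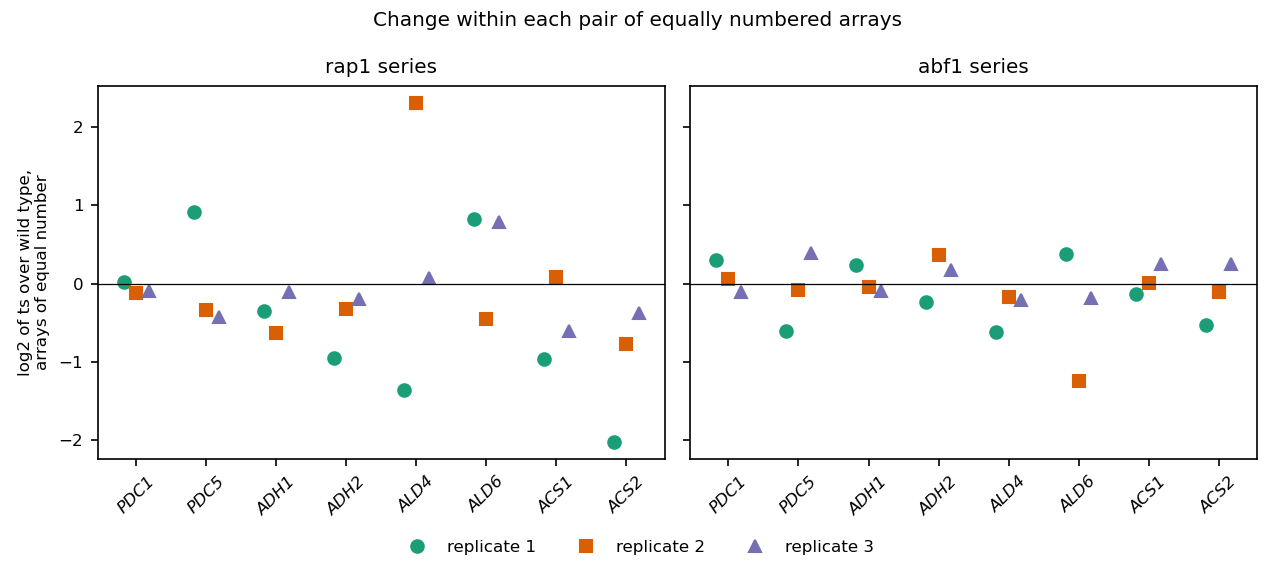
Change of each tested gene within each pair of equally numbered arrays, as the log2 of mutant over wild type (offset added), for the rap1 series (left) and the abf1 series (right). In the rap1 series all 3 pairs are below 0 for ADH1, ADH2 and ACS2, and the pairs of ALD4 run from -1.35 to 2.31.

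The wild types were compared because each sets the base of its mutant's change. None of the 8 genes passed (limma adjusted p from 0.965 to 0.997), and none had groups that did not overlap, beside 9.22% of all features. The aldehyde dehydrogenases had the largest differences. ALD6 was lower in the rap1 than in the abf1 wild type by a log2 value of -1.43 (SE 0.83) and ALD4 by -1.02 (SE 0.65). PDC1, ADH1 and ACS2 had 0.15, 0.22 and 0.03.

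Some of the genes varied together over the arrays, which is given here as a description. PDC1 and ADH1 had a Pearson correlation of 0.80 over the 12 arrays and of 0.86 after the group means were removed. They shared their highest value in rap1 wild-type array 2, and without that array the correlation was 0.56. ACS1 and ACS2 had 0.84, and ADH2 and ACS2 had 0.79. These were 0.49 and 0.42 without rap1 ts array 1, where all of ADH2, ACS1 and ACS2 had their lowest signal. PDC5 had correlations from -0.36 to 0.41 with the other 7, and without rap1 ts array 1 its correlation with ACS2 was 0.91. All such values come from the same 12 arrays and share their scaling and RNA quality.

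**Figure D4:**
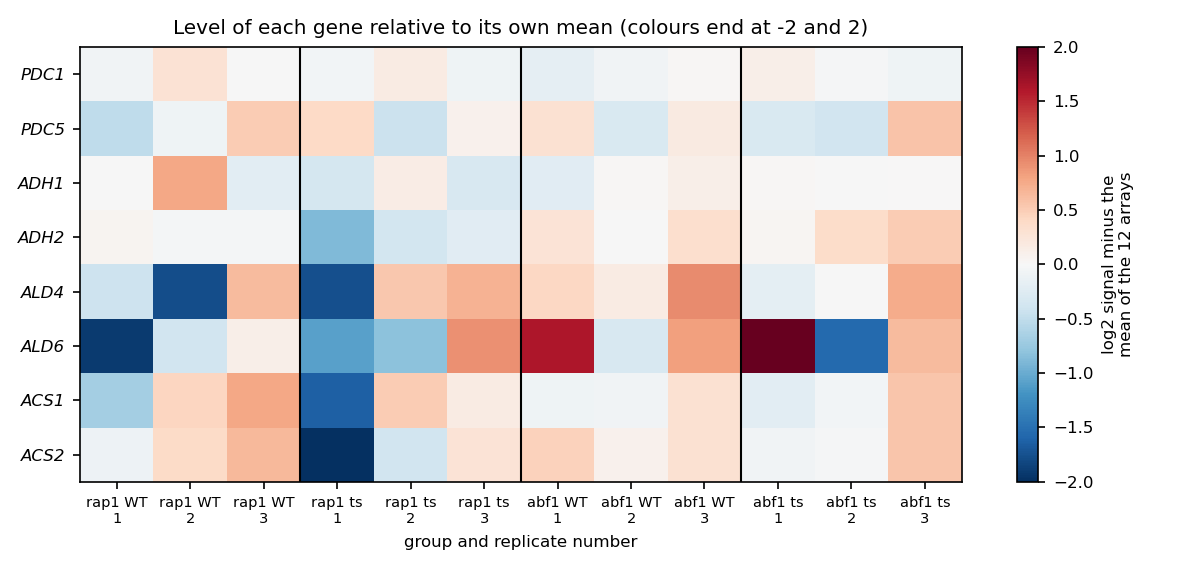
Level of each tested gene on each array as log2 signal minus the gene's own mean over the 12 arrays (colour scale from -2 to 2), with lines between the 4 groups. Rap1 ts array 1 is low for ADH2, ALD4, ACS1 and ACS2 together, and PDC1 is pale on every array.

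Among genes outside the 9, likeness was measured as the highest Pearson correlation of log2 values over 12 arrays. Such values are maxima picked from many, as 4543 of the tested features named 1 gene. The genes most like ADH1 were the actin gene ACT1 (0.94), the pyruvate kinase gene CDC19 (0.93) and the ribosomal protein gene RPL31B (0.92). Without rap1 wild-type array 2 these were 0.81, 0.81 and 0.72. For PDC1 they were TPI1, of triose phosphate isomerase (0.82), TMA19 (0.81) and RPS10A (0.81), and without rap1 wild-type array 2 these were 0.62, 0.59 and 0.59. For ACS2 they were the mannosyltransferase gene VAN1 (0.98), DCK1 (0.97) and EBS1 (0.97), and without rap1 ts array 1 these were 0.87, 0.84 and 0.83. For ACS1 they were OST6 (0.95), LDB16 (0.95) and EMC6 (0.95), and for ALD4 the fatty acyl-CoA synthetase gene FAA1 (0.95), CSE2 (0.95) and YDL124W (0.95). ADH2 was closest to GGC1 (0.94), DIG2 (0.92) and TTI1 (0.90), with 0.87, 0.82 and 0.78 without rap1 ts array 1. ALD6 was closest to ERG27 (0.91), FYV6 (0.87) and UPS2 (0.87), and PDC5 to BRL1 (0.80), BRE5 (0.77) and PTP3 (0.75).

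The remaining enzymes around this branch were read from lists of genes, with 0 called in either mutant without a block, so each call named from here on is one with the replicate block, where 25% of all features were called in rap1 ts and 0.213% in abf1 ts. In abf1 ts 0 genes of any of these lists were called with the block either. In the fits below with rap1 pair 1, 2 or 3 left out, 14.9%, 20.3% and 13.4% of all features were called in rap1 ts. Groups that do not overlap stand beside a share of 26.5% of all features in the rap1 series and 7.62% in the abf1 series. Of the other alcohol and aldehyde dehydrogenases, 11 of 12 genes were tested, 2 fell and 1 rose in rap1 ts, and the median log2 fold change was -0.14. ALD3, a stress-induced cytosolic aldehyde dehydrogenase, read 212, 92.3 and 228 in the wild type and 570, 627 and 650 in rap1 ts. The mutant values are all above the wild-type values, and they overlap the abf1 wild type at 579, 708 and 587. The log2 fold change of ALD3 was 1.81 (blocked SE 0.35, limma adjusted p = 0.00913 with the block and 0.0902 without), and ALD3 was called with any 1 of the 3 pairs left out.

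ADH5, an isozyme of ADH1, read 933, 1187 and 860 in the wild type and 354, 658 and 612 in rap1 ts (log2 fold change -0.90, limma adjusted p = 0.0372 with the block). ADH6, an NADPH-dependent alcohol dehydrogenase, read 2830, 3684 and 4106 and then 1538, 2748 and 2712 (-0.63, adjusted p = 0.0319 with the block). In both the groups do not overlap. Neither was called without pair 1 or without pair 3, and without pair 2 ADH6 and ALD5 (-0.68 over all pairs) were the genes that fell.

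Pyruvate can also enter mitochondria for the pyruvate dehydrogenase complex. In that list 13 of 14 genes were tested, with a median of 0.03, and 2 fell and 2 rose in rap1 ts. The genes of the E1 subunits fell: PDA1 read 6590, 7292 and 6816 in the wild type and 3762, 5513 and 4509 in rap1 ts (log2 fold change -0.60, limma adjusted p = 0.0337 with the block). PDB1 read 3715, 4791 and 5610 and then 1416, 3485 and 3347 (-0.86, adjusted p = 0.0260 with the block). The genes of E2 and E3, LAT1 and LPD1, had 0.03 and 0.22 and were not called.

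PKP2, a kinase that switches the complex off, and PTC5, a phosphatase that switches it on, both rose, PKP2 by 0.80 and PTC5 by 0.74 on the log2 scale (with the block, limma adjusted p = 0.0420 and 0.0257). PKP2 read 712, 691 and 697 in the wild type and 1135, 1482 and 1098 in rap1 ts, and PTC5 read 1368, 1117 and 1253 and then 1792, 2036 and 2477. The groups do not overlap for any of these 4 genes, nor for LPD1, which was not called. Without pair 1 the list kept 1 call, PTC5, without pair 2 it kept PDA1 and PDB1, and without pair 3 none. PKP2 was not called with 1 block shared by all arrays (adjusted p = 0.0580). In abf1 ts PKP2 had 0.71, above 0 in 3 of 3 pairs, and PTC5 had -0.44, with groups that do not overlap, and neither was called (limma adjusted p = 0.440 and 0.679 with the block). The difference between the mutant effects was 0.09 for PKP2 (limma adjusted p = 0.892 with the block) and 1.18 for PTC5 (0.0392 with the block and 0.267 without).

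**Figure D5:**
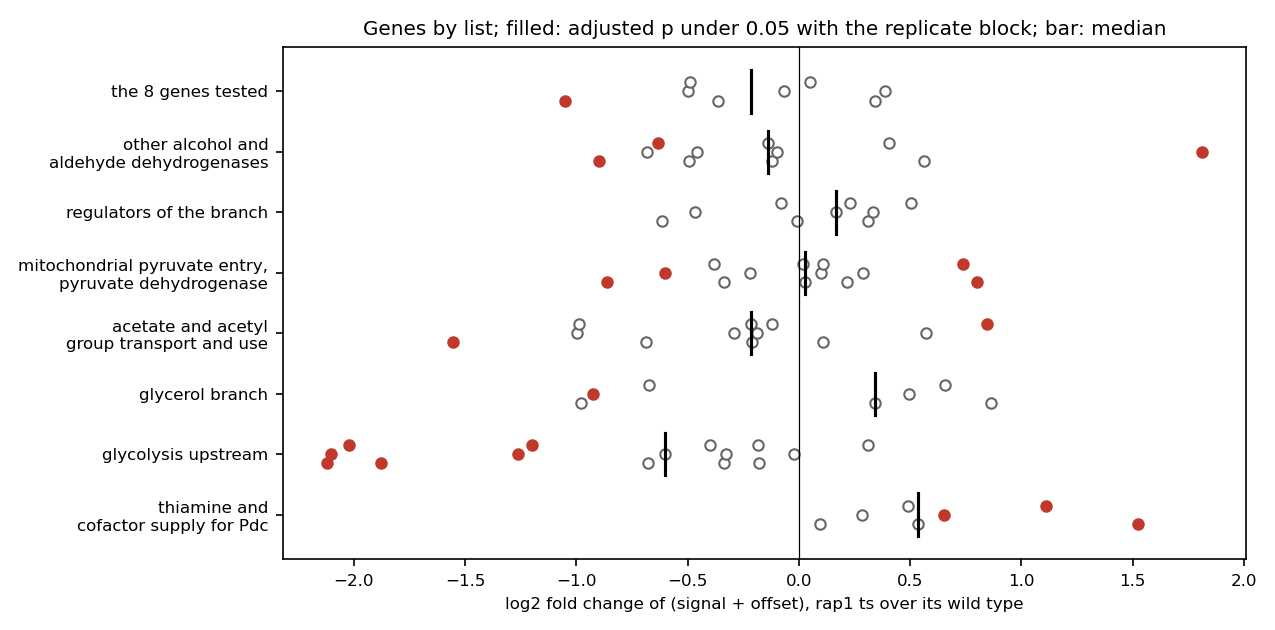
Log2 fold change in rap1 ts of the 8 tested genes and of the tested genes of 7 lists around them (points), with filled points for an adjusted p under 0.05 with the replicate block and a bar at each median. Of the 8 genes ACS2 alone is filled at -1.05, and 6 of 15 upstream glycolysis genes are filled, all of them below -1.

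Of the genes for acetate and acetyl group transport and use, 12 of 16 were tested, with a median of -0.21 in rap1 ts, and 1 fell and 1 rose. CIT2, the peroxisomal citrate synthase, read 1043, 7099 and 491 in the wild type and 567, 609 and 401 in rap1 ts (log2 fold change -1.55, limma adjusted p = 0.0496 with the block). Most of that change is in pair 2, with -3.52, and CIT2 was not called without pair 2 or without pair 1. Array 2 was also the highest in both abf1 groups, at 6357 in the wild type and 3693 in abf1 ts. CAT2, carnitine acetyltransferase, read 207, 170 and 297 and then 249, 421 and 627 (0.85, adjusted p = 0.0375 with the block), and was called without pair 1 but not without pair 2 or pair 3. With 1 block shared by all arrays neither passed (adjusted p = 0.0601 and 0.0779).

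Of the regulators, 9 of 15 were tested, and 0 were called with the block. GCR1, the partner of Rap1 at glycolytic promoters, had a log2 fold change of -0.62 in rap1 ts (limma adjusted p = 0.0571 with the block), and PDC2, an activator of the pyruvate decarboxylase genes, 0.31 (adjusted p = 0.362 with the block).

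Upstream glycolysis stood beside the 8 genes in the same arrays: 14 of 15 tested genes lay below 0 in rap1 ts, with a median of -0.60, and 6 fell with the block. HXK2 (hexokinase), PGI1 (phosphoglucose isomerase) and ENO1 (an enolase) fell, with -2.10, -2.02 and -2.12 on the log2 scale (with the block, limma adjusted p = 0.00590, 0.00321 and 0.00871), and these 3 were called with any 1 pair left out. The rap1 groups of ENO1 overlap, and those of HXK2 and PGI1 do not. CDC19, the pyruvate kinase that feeds PDC1, had -0.33 (limma adjusted p = 0.168 with the block), close to the -0.36 of ADH1. Like that of ADH1, the highest CDC19 signal, 38735, came from rap1 wild-type array 2, where the other rap1 wild-type arrays read 21821 and 19105. Of the same list TPI1, TDH3, GPM1 and FBA1 had -0.18, -0.18, -0.33 and -0.40 and were not called. PGK1, at 13715, 29943 and 18607 in the rap1 wild type, fell, with -1.26 (limma adjusted p = 0.0160 with the block). Compression of high signals was not tested for any of these genes, PDC1 or ADH1. The direct difference in change between the glycolytic genes and PDC1 or ADH1 was not tested.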

How the data were processed

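Each deposited file holds 1 linear intensity per probe set, which the submitters' processing notes credit to MAS5. Its version, its settings and any detection call: not given in the sources used here. Trimmed means of all arrays (2% of probe sets cut at each end) were 1500.7 to 1501.3, as after scaling to a common target. At most 36 values were identical between any 2 arrays, and the number of arrays limits the precision.

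Probe sets were named from the platform annotation: 6504 of them named 1 gene, 328 several and 2443 none, beside 60 controls. Features with a mean log2 value under the 20th percentile were left out, which left 4687 of 5859. limma 3.58.1 in R 4.3.3 fitted 4 group means to log2(signal + 12.6), the 10th percentile of non-control values, with a variance trend. On that scale the changes of dim genes are understated. Tested were rap1 ts and abf1 ts, each against its own control, the difference of these effects, and 1 control against the other. Deviations from group means of equally numbered arrays correlated by 0.25 to 0.82 over features, above the set minimum of 0.1, so the numbers were taken to pair arrays; this pairing rests on the data, not on the labels. The block was fitted within each series. The fits were tested on simulated data. Other scalings, offsets, filters, ways to join probe sets and left-out arrays were tried.

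Named outside the 9 genes are, by rule, up to 3 genes per direction called with the block in each list (there was no call without it), RAP1, ABF1 and the 3 genes most like each member. LAT1, LPD1, GCR1, PDC2, CDC19 and ALD5 were named after their values were seen. So were GPD1, GPD2, GPP2, GUT1, GUT2, NDE1, TDH3, GPM1, FBA1 and PGK1. The members and lists were chosen with earlier results of these data known. All 10 probe sets of the 9 genes carry the plain suffix of this design, while those used for ENO1, TDH3 and GCR1 do not. Cross-hybridisation between the similar PDC, ADH or ENO genes was not tested. A genome gene list gave the ribosomal gene names for the centring outside the ribosomal, glycolytic and member genes, and probe sets were not named from it. Sequences were not read from a genome, and no sequence is shown.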

Additional observations from a re-analysis of the deposited data

How the results depend on the processing

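The number of the 8 genes called was 0 in rap1 ts and 1, ACS2, with the replicate block within series. In abf1 ts, in the difference of the mutant effects and between the wild types it was 0 under every alternative run, with or without the block, while the counts over all features ran from 3 to 1171 in rap1 ts, 0 to 12 in abf1 ts and 0 to 632 in the difference, and stayed at 0 between the wild types. The block gave 1 without rap1 pair 2 or pair 3, where 20.3% and 13.4% of all features were called. Without pair 1 it gave 0, where 14.9% were called. The cause was not tested. Of 708 member values under alternatives 3 passed newly, all of ACS2, and 56 changed sign, none of them called.

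On the log2 scale in rap1 ts, PDC1 came to 0.053 and PDC5 to -0.13 with quantile scaling, PDC5 to -0.038 with median centring and -0.048 with centring outside the ribosomal, glycolytic and member genes, and ALD6 to -0.17 as the mean of its probe sets. In abf1 ts, ACS1 came to -0.025 (quantile) and -0.0078 (median centring) and ADH1 to -0.012 (median centring). PDC5 came to -0.057 in the difference (quantile) and to 0.098, 0.026 and 0.082 between the wild types under the 3 scalings.

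With 1 array left out, the rap1 ts change ran from -0.15 to 0.043 for PDC1, -0.19 to 0.32 for PDC5, -0.28 to 1.13 for ALD4, -0.23 to 0.81 for ALD6 and -0.92 to 0.16 for ACS1. The abf1 ts change ran from -0.40 to 0.075 for PDC5, -0.062 to 0.10 for ADH1, -0.0030 to 0.23 for ADH2, -1.17 to 0.61 for ALD6 and -0.19 to 0.19 for ACS1. The difference ran from -0.095 to 0.45 for PDC5, -0.22 to 1.56 for ALD6 and -0.96 to 0.12 for ACS1. Between the wild types the value ran from -0.36 to 0.15 for PDC5, -0.078 to 0.42 for ADH1, -0.18 to 0.55 for ACS1 and -0.14 to 0.23 for ACS2.

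With the replicate block and 1 pair left out, the sign turned for PDC5 (-0.38 in rap1 ts and -0.28 in the difference without rap1 pair 1, 0.16 in abf1 ts and -0.11 in the difference without abf1 pair 1) and for ALD4 (-0.64 in rap1 ts and -0.31 in the difference without rap1 pair 2). In abf1 ts it turned for PDC1 (-0.029), ADH1 (-0.068) and ACS2 (0.070) without pair 1, ADH2 (-0.032) and ALD6 (0.092) without pair 2, and ACS1 (-0.066) without pair 3.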

Other observations

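Genes listed for the supply of thiamine, the source of the cofactor of pyruvate decarboxylase, and of cofactors lay higher in rap1 ts. The list is wider than the thiamine pathway itself. Of 12 listed genes 7 were tested, all 7 above 0, with a median log2 fold change of 0.53 beside 0.09 over all features, and 3 rose with the replicate block, where 15% of all features rose. THI7, the thiamine transporter, read 3567, 2534 and 1443 in the rap1 wild type and 9977, 6421 and 4918 in rap1 ts, which leaves no overlap (log2 fold change 1.53, limma adjusted p = 0.00690 with the block and 0.15 without). THI20, of thiamine synthesis, read 1393, 607 and 2046 and then 2825, 2396 and 2634 (1.11, adjusted p = 0.0181 with the block). THI22 had 0.65 (adjusted p = 0.0277 with the block, and 0.0517 with 1 block shared by all arrays). THI7 was called with any 1 pair left out, THI20 not without pair 2, and THI22 only without pair 2 among the 3 such fits. THI20, THI21 and THI22 are similar genes, and shared signal was not tested. The rap1 ts values of THI7 overlap those of the abf1 wild type, which read 5740.5, 2655.5 and 3575.5. Between the wild types 6 of the 7 genes lay lower in the rap1 than in the abf1 control, with a median of -0.29, where 62.6% of all features lay lower. In abf1 ts THI7 had -0.83, below 0 in 3 of 3 pairs, and was not called (limma adjusted p = 0.337 with the block and 1.000 without). The difference between the mutants was 2.35 (limma adjusted p = 0.0182 with the block and 0.336 without). With the block 9.09% of all features were called in that difference.

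Of the genes listed for the glycerol branch, 7 of 9 were tested, with a median of 0.34 in rap1 ts, and 1 fell with the block. Glycerol synthesis, which reoxidises NADH in place of ethanol formation, is only part of that list. Of its genes, GPD1, GPD2 and GPP1 had -0.67, -0.98 and -0.93, and GPP2 had 0.34. GUT1, GUT2 and NDE1, which are not of glycerol synthesis, had 0.49, 0.66 and 0.86. GPP1, glycerol phosphatase, read 12104, 17046 and 11751 in the rap1 wild type and 5269, 7799 and 8574 in rap1 ts, without overlap (log2 fold change -0.93, limma adjusted p = 0.0106 with the block and 0.113 without), and it was called with any 1 pair left out. In abf1 ts GPP1 had -0.05.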
